A study of Mus musculus with 5 samples.

Results

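Axon guidance genes encode secreted and membrane-bound cues and the receptors that read them. The rule took every gene whose symbol names a class 3 to 7 semaphorin, a plexin, a neuropilin, an ephrin, an Eph receptor, a Slit, a Robo, a netrin (Ntn1, Ntn3 or Ntn4), Dcc or an Unc5 receptor. It found 63 genes among the 15971 in the expression table. The RefSeq gene table lists 4 further symbols that fit the rule (Epha1, Ntn3, Plxnb3 and Sema3g), which were not analysed here.

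Single cells of the developing mouse cerebellum had been profiled in 5 libraries with a 3′ droplet assay that counts unique molecular identifiers (UMIs), in a series on where Group 3 and Group 4 medulloblastoma begin. By title, 2 libraries are RL e14, 2 are RL e13 and 1 is EomesCreER e16, where RL is taken as the rhombic lip named in the series title and EomesCreER names a mouse line with inducible Cre driven from Eomes. The labels give embryonic day 13, 14 or 16 and cerebellum as tissue for every library, and no strain, Cre reporter, induction or sort. RL e13 replicate 2 is tagged e14 although its title says e13, and the title of RL e14 replicate 1 carries no number. The e16 library was matched to its cells as the only batch name left, a name that shares no word with its title, so values given for e16 rest on that match.

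The libraries held 706 to 2676 cells, with a median of 10346 UMIs per cell in the e16 library and 15855 to 19970 in the RL libraries. The same barcode occurred in more than 1 library for 6 barcodes. Cells were sorted into 5 gates by genes that are not guidance genes: Sox2, a progenitor factor, Atoh1, the factor that specifies rhombic lip derivatives, Barhl1 with Mapt, Eomes with Lmx1a, and Tlx3 with Lhx1. A gate held the cells with 2 or more UMIs of each of its genes that met no other gate. That gave 1277 Sox2, 1214 Atoh1, 1122 Barhl1 and Mapt, 177 Eomes and Lmx1a and 90 Tlx3 and Lhx1 cells, while 2249 cells met 2 or more gates and 858 met none. Levels are in CPM, where UMIs add up to 1000000 per profile, as the mean over the cells of a gate in 1 library, for gates with 20 or more cells there. Because the assay reads transcript ends, a CPM level is a share of molecules and is not scaled by gene length. RL values are given in the order e13 replicate 1, e13 replicate 2, e14 replicate 1, e14 replicate 2 unless stated.

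Markers fitted the gates in part. Summed progenitor markers (9 genes, such as Hes5 and Fabp7) stood at 8613 to 14519 CPM in the Sox2 gate and at 1307 to 3246 CPM in the Atoh1 gate. Summed markers of postmitotic granule neurons (9 genes, such as Neurod1 and Dcx) stood at 11559 to 15753 CPM in the Barhl1 and Mapt gate, against 294 to 339 CPM in the Sox2 gate. They were also at 9740 CPM in the Eomes and Lmx1a gate and 9709 CPM in the Tlx3 and Lhx1 gate, so they did not single out granule neurons. Summed granule progenitor markers (8 genes) went against their gate, at 1797 to 2169 CPM in the Atoh1 gate and 2062 to 3670 CPM in the Barhl1 and Mapt gate. Within this list Zic1 (493 to 817 against 702 to 2201 CPM) and Zic2 (237 to 425 against 486 to 727 CPM) went with the sum. Atoh1, the gate gene, was at 204 to 532 against 6.20 to 14.7 CPM. The Barhl1 and Mapt gate of the e16 library carried Eomes at 621 CPM, against 168 to 237 CPM in the RL libraries. The Atoh1 gate of RL e13 replicate 1 held 42 cells, and its summed markers of glutamatergic cerebellar nuclei (4 genes) reached 241 CPM, mostly Meis2 at 211 CPM. Microglial, meningeal and endothelial markers summed to at most 11.6, 6.81 and 37.4 CPM in any gate.

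Semaphorins signal through plexins, and the secreted class 3 semaphorins also bind neuropilins. Ephrins and Eph receptors signal between touching cells in both directions, Slits repel growing axons through Robo receptors, and netrins attract through Dcc or repel through Unc5 receptors. In the hindbrain these systems are known to steer the tangential migration of rhombic lip derivatives and, later, granule cell migration.

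Of the 63 genes, 48 reached 10 CPM in at least 1 gate of 1 library. The 15 that did not were Efna1, Epha2, Ephb3, Ephb4, Ephb6, Nrp2, Robo3, Sema3b, Sema3c, Sema3e, Sema3f, Sema4a, Sema4d, Sema5b and Slit3, with Robo3 the highest at 9.40 CPM. Class 3 semaphorins and EphB receptors had 2 of 6 and 2 of 5 genes at 10 CPM, neuropilins 1 of 2, and Slits and Robos 2 of 3 each, while all 8 plexins and all 3 ephrin-B genes reached it. Epha5 had the highest level of any guidance gene, 829 CPM in the Barhl1 and Mapt gate of RL e14 replicate 1. The highest levels in the other families were 371 CPM for Unc5c and 283 CPM for Plxnb2 (both in the Barhl1 and Mapt gate), 245 CPM for Ephb2 (Tlx3 and Lhx1 gate) and 191 CPM for Robo2 and 188 CPM for Efnb2. Dcc reached 176, Efna5 121, Sema7a 103, Nrp1 96.2, Sema3a 83.9 and Slit2 49.7 CPM.

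**Figure D1:**
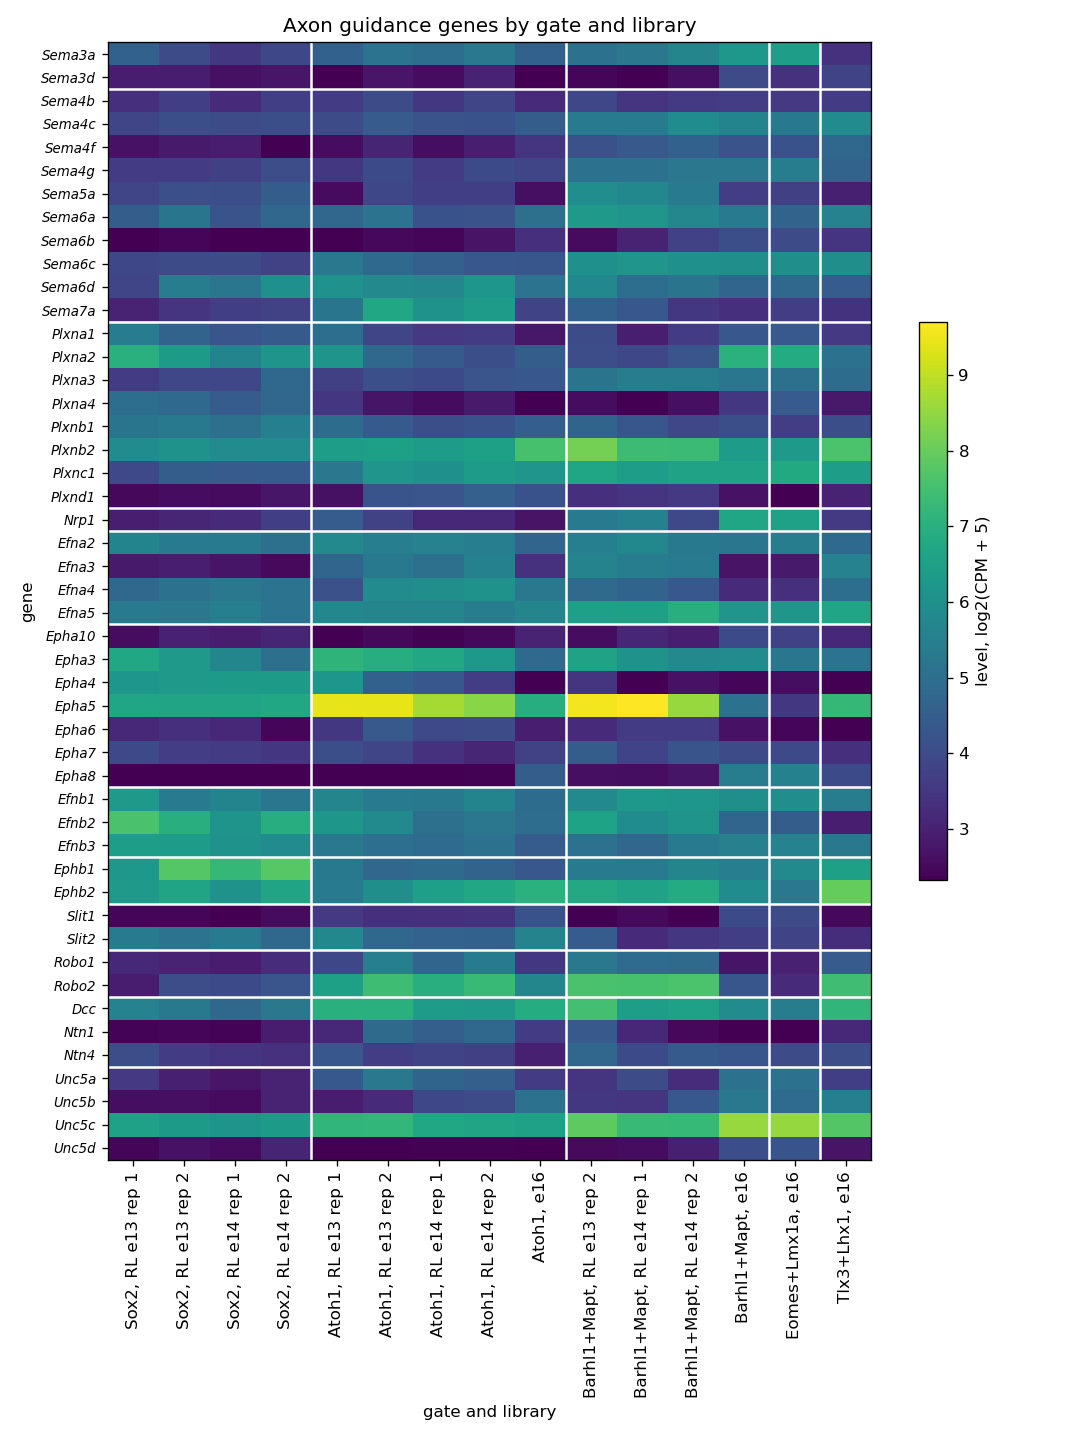
Levels of the 48 guidance genes that reached 10 CPM, as log2(CPM + 5), with genes in rows grouped by family and each gate of each library in a column (white lines part families and gates). Epha5 is the brightest row in the RL columns of the Atoh1 and of the Barhl1 and Mapt gate, and is dim in the Barhl1 and Mapt and the Eomes and Lmx1a columns of the e16 library.

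The first comparison asked which guidance genes differ between Sox2 progenitors and Atoh1 cells of the same RL library. The receptor genes Robo2, Epha5, Robo1, Unc5a and Dcc and the ligand genes Sema7a and Efna3 were higher in the Atoh1 gate. The receptor genes Ephb1, Plxna4 and Epha4 and the ligand gene Efnb2 were lower. Of the 63 genes, 31 passed the level filter (a mean of 10 CPM over the profiles compared). In limma with the library as a block, 14 rose and 8 fell at an adjusted p under 0.05, and 9 did not pass. Over all 8421 genes tested, 10.7% rose and 18.3% fell (29% in all), and with median of ratios scaling 1181 rose and 1232 fell. Summed markers of GABAergic interneurons (5 genes) stood at 12.7 to 65.0 CPM in the Sox2 gate and 1.59 to 17.6 CPM in the Atoh1 gate. In the Sox2 gate the sum was mostly Ptf1a (11.5 to 63.0 CPM), while Gad1, Gad2, Slc32a1 and Pax2 were each at 3.93 CPM or less. The highest Atoh1 sum, in RL e13 replicate 1, was mostly Gad2 (10.7 CPM) and Gad1 (6.93 CPM). The sum alone therefore does not show interneurons in the Sox2 gate, and the part of these markers in the result was not tested. The median difference was 0.33 on the log2(CPM + 5) scale for the guidance genes and -0.06 for all genes.

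Promoter sequence is shown for 4 of the genes with the largest rises, because Atoh1 is a bHLH factor and such factors bind E-boxes. The 250 bases before a RefSeq start (GRCm38.p6, the mm10 assembly) are printed 5′ to 3′ on the gene's strand, in lower case. Capitals mark E-boxes of either of the searched forms. Where any start of a gene had such an E-box, only starts with one were printed, so the stretches shown were picked for the motif. One form was CAGCTG, which reads the same on both strands. The other was CAGATG, searched on both strands, and the forms cannot overlap. The Sema7a stretch is chr9:57939862-57940111 on the plus strand. The Efna3 stretch (chr3:89322940-89323189), the Robo2 stretch (chr16:74411826-74412075) and the Epha5 stretch (chr5:84417383-84417632) lie on the minus strand. The Sema7a, Robo2 and Epha5 stretches lie inside the gene spans (chr9:57939596-57962865, chr16:73891976-75447443 and chr5:84054761-84417818). The starts they precede are therefore not the outermost starts of these genes.
Sema7a: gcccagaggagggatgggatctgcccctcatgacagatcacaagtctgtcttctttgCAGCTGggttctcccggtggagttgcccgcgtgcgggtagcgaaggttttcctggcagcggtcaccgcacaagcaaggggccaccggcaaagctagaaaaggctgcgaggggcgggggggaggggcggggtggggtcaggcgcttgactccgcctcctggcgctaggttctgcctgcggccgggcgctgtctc
Efna3: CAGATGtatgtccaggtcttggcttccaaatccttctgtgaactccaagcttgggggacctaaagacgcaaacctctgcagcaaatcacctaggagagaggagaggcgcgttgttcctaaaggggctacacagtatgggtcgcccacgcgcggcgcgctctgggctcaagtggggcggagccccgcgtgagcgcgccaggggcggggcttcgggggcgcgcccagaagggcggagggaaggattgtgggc
Robo2: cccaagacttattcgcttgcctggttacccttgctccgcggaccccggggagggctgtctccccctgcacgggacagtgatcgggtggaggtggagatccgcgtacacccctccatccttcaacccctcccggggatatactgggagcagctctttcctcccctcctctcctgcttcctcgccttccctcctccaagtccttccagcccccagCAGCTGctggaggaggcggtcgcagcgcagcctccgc
Epha5: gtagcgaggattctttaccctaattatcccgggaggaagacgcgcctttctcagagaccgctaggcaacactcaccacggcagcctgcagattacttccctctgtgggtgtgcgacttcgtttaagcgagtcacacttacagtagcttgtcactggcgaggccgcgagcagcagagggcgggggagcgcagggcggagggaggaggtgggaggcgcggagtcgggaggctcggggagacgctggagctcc
Sema7a had CAGCTG 193 bases before the start used here, Efna3 CAGATG 250 bases before its start and Robo2, at 1 of its starts, CAGCTG 37 bases before it. These letters were not in the Epha5 window. Over the 32851 promoters in the RefSeq table, 25.5% held at least 1 of the motifs. The table had 18 promoters for 13 of the 14 genes that rose, and 4 of them (22.2%) held one, those of Efna3, Robo2, Sema6c and Sema7a. It had 5 promoters for the 8 genes that fell, and 0 held one. The share among the genes that rose lay near that of all promoters.

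Robo receptors were at low levels in the Sox2 gate. Robo2, a Slit receptor (gene at chr16:73891976-75447443), was at 2.59, 11.7, 10.6 and 14.5 CPM in the Sox2 gate and at 87.3, 164, 122 and 152 CPM in the Atoh1 gate. Every Atoh1 value lay above every Sox2 value, and the log2 difference was 3.24 ± 0.12 (SE, n = 4 libraries, adjusted p = 5.17e-06 in limma). Robo1, its paralogue, rose from a mean of 3.57 ± 0.95 to 27.4 ± 14.3 CPM (SD), a log2 difference of 1.80 ± 0.26 (SE). Slit2, a ligand of both, was at 31.1 ± 6.15 CPM in the Sox2 gate and 28.0 ± 14.5 CPM in the Atoh1 gate and did not pass (adjusted p = 0.42 in limma).

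In the Eph system, 2 of 4 ephrin-A genes and 2 of 3 EphA genes tested rose, whereas 2 of 3 ephrin-B genes and 1 of 2 EphB genes fell. Epha5, a receptor for ephrin-A ligands, was at 96.9, 95.2, 93.8 and 104 CPM in the Sox2 gate and at 681, 688, 413 and 332 CPM in the Atoh1 gate. The Sox2 values lay within 10 CPM of each other, whereas the Atoh1 values were higher in both e13 libraries than in both e14 libraries. The log2 difference of Epha5 was 2.31 ± 0.18 (SE, adjusted p = 0.000111 in limma). Efna3, an ephrin-A ligand, was at 2.27, 2.69, 1.73 and 0.696 CPM in the Sox2 gate, from 2 to 24 UMIs a library, and at 21.5, 34.9, 27.8 and 42.2 CPM in the Atoh1 gate. Its groups were far apart, with a log2 difference of 2.39 ± 0.20 (SE). Efna5 and Epha3 rose less, by log2 differences of 0.33 ± 0.09 and 0.82 ± 0.14 (SE), and their groups overlapped. Efna2 and Efna4 did not pass.

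Ephb1, a receptor for ephrin-B ligands, was at 71.8, 210, 148 and 215 CPM in the Sox2 gate and at 34.5, 21.9, 24.4 and 20.3 CPM in the Atoh1 gate. RL e13 replicate 1 had both the lowest Sox2 level and the highest Atoh1 level, and the groups did not overlap. Ephb1 fell by 2.36 ± 0.32 (SE) on the log2 scale (adjusted p = 0.00136 in limma). Its ligand genes Efnb2 and Efnb3 fell by 1.32 ± 0.11 and 1.15 ± 0.11 (SE), from means of 123 to 45.9 and 70.3 to 28.8 CPM, while Efnb1 did not pass. Ephb2, the other EphB receptor tested, did not pass either, with 81.7 ± 14.6 CPM in the Sox2 gate and 71.1 ± 28.8 CPM in the Atoh1 gate.

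Epha4, a receptor that binds ligands of both classes, was at 68.6, 73.8, 75.8 and 76.1 CPM in the Sox2 gate and at 68.0, 19.3, 15.1 and 7.56 CPM in the Atoh1 gate. Its value in the Atoh1 gate of RL e13 replicate 1 was close to the Sox2 values, and that gate also had the 241 CPM of nuclei markers. The part of those cells in the result was not tested. Epha4 fell by 1.60 ± 0.37 (SE, adjusted p = 0.0152 in limma), and the adjusted p was 0.0871 without RL e14 replicate 1 and 0.0576 without RL e13 replicate 2. With cells that met both gates kept in both, the difference was -0.82 (adjusted p = 0.0545). Plxna2 stood out in the same gate, at 66.1 CPM against 12 to 22.9 CPM in the other RL libraries.

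Among plexins, the semaphorin receptors, 3 of 4 class A genes fell and the class C gene rose. Plxna4 was at 26.7, 24.0, 17.0 and 22.2 CPM in the Sox2 gate and at 6.26, 1.72, 0.756 and 2.28 CPM in the Atoh1 gate, and fell by 1.86 ± 0.15 (SE). Plxna2, Plxnb1 and Plxna1 fell by 1.42 ± 0.18, 0.86 ± 0.17 and 0.69 ± 0.12 (SE), and Plxna3 did not pass. Plxnc1, the receptor of Sema7a, rose from 10.5, 17.5, 16.9 and 17.2 CPM to 32.7, 67.4, 60.9 and 77.7 CPM, a log2 difference of 1.61 ± 0.12 (SE). Sema7a, a membrane-anchored semaphorin, rose with it. Sema7a was at 3.37, 5.93, 8.04 and 8.56 CPM in the Sox2 gate and at 31.5, 103, 62.7 and 80.4 CPM in the Atoh1 gate, with a log2 difference of 2.61 ± 0.19 (SE, adjusted p = 7.41e-05 in limma). For ligand and receptor alike, every Atoh1 value lay above every Sox2 value, and RL e13 replicate 1 was the lowest library in each gate.

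Netrin receptors were higher in the Atoh1 gate. Dcc was at 43.5, 34.4, 22.4 and 33.4 CPM in the Sox2 gate and at 125, 123, 79.7 and 74.5 CPM in the Atoh1 gate, a log2 difference of 1.45 ± 0.12 (SE). Unc5a, a repulsive netrin receptor, rose from 6.70, 2.79, 1.80 and 3.33 CPM to 15.4, 34.0, 20.8 and 18.3 CPM, a log2 difference of 1.63 ± 0.24 (SE). Unc5c, another such receptor, was already at 77.1 ± 9.55 CPM in the Sox2 gate and reached 119 ± 25.1 CPM, a log2 difference of 0.58 ± 0.10 (SE). The groups did not overlap for any of the 3 receptors. Sema3a, Sema6c and Plxnb2 complete the genes that rose, by log2 differences of 1.0 ± 0.24, 0.84 ± 0.16 and 0.52 ± 0.08 (SE). With each cell thinned to 6000 UMIs, Plxnb1, Plxna1, Plxnb2 and Unc5c did not pass (adjusted p from 0.0819 to 0.205 in limma).

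**Figure D2:**
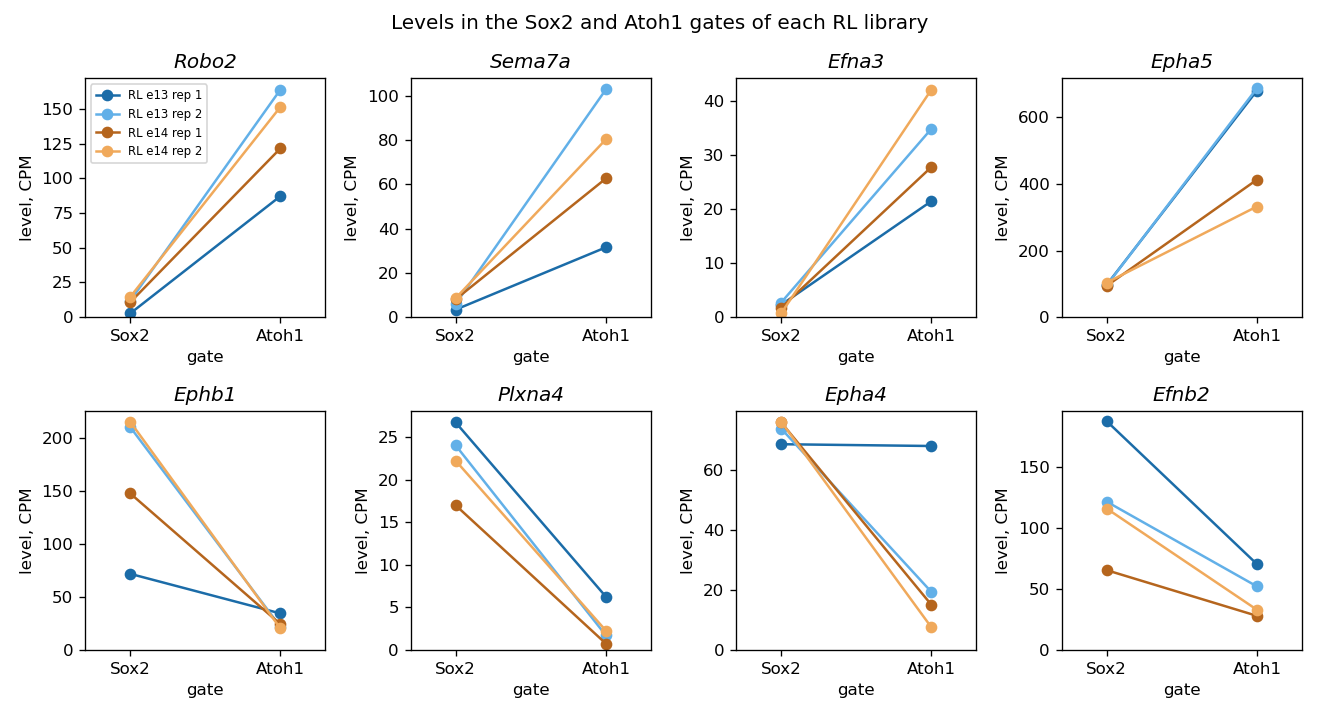
Levels in CPM of 4 genes that rose (top) and 4 that fell (bottom) between the Sox2 and the Atoh1 gate, with 1 line per RL library. Robo2, Sema7a, Efna3 and Epha5 climb in all 4 libraries, and Epha4 is nearly flat in RL e13 replicate 1, where it goes from 68.6 to 68.0 CPM.

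Further genes of the guidance pathway were taken from fixed lists. Of 18 other ligands, receptors and adhesion co-receptors, 9 were tested, 1 rose and 3 fell, with a median log2 difference of -0.17. Alcam, an adhesion molecule, rose by a log2 difference of 1.86 ± 0.18 (SE), and Rgma, a repulsive ligand of neogenin, fell by 2.97 ± 0.31 (SE). Nrcam and Flrt2 fell by 0.68 ± 0.13 and 0.52 ± 0.12 (SE). Of 36 intracellular signalling genes, 29 were tested, 6 rose and 4 fell, with a median of -0.02. Beside these counts stand the 10.7% of all genes that rose and the 18.3% that fell. Rnd2, a small GTPase, rose by 2.48 ± 0.13 and the collapsin response mediator genes Dpysl4 and Crmp1 by 1.86 ± 0.17 and 1.73 ± 0.11 (SE), while Srgap3, which encodes a Slit-Robo GTPase activating protein, fell by 1.76 ± 0.18 (SE).

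The second comparison set the Barhl1 and Mapt gate, which holds postmitotic neurons by its markers, against the Atoh1 gate in the 3 RL libraries with 20 or more cells in both. Sema5a, Sema6a, Sema6c, Nrp1 and Plxnb2 were among the genes higher in the Barhl1 and Mapt gate, whereas Sema7a, Ntn1, Efna4 and Unc5a were lower. Of the 34 guidance genes tested, 17 rose, 8 fell and 9 did not pass in limma. Over all 8261 genes tested, 27.6% rose and 26.3% fell (53.9% in all), so that the share of guidance genes that fell (8 of 34) lay near the background. The median log2 difference was 0.34 for the guidance genes and 0.00 for all genes. Cell cycle markers (4 genes) summed to 520 to 981 CPM in the Atoh1 gate and 43.5 to 184 CPM in the Barhl1 and Mapt gate, over all libraries, and their part in these differences was not tested. Values below are in the order RL e13 replicate 2, RL e14 replicate 1, RL e14 replicate 2. Summed markers of glutamatergic cerebellar nuclei reached 146 CPM in the Barhl1 and Mapt gate. Meis2, their largest part there, was at 103, 81.3 and 47.7 CPM, against 40.2, 21.4 and 10.7 CPM in the Atoh1 gate. The part of such cells was not tested either.

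Class 4 to 7 semaphorins gave 5 rises and 2 falls among 7 genes tested. Sema5a, a transmembrane semaphorin, was at 10.2, 7.83 and 7.82 CPM in the Atoh1 gate and at 56.7, 50 and 35.7 CPM in the Barhl1 and Mapt gate. All 3 libraries moved together, and the log2 difference was 1.93 ± 0.16 (SE, n = 3 libraries, adjusted p = 4.32e-06 in limma). Sema6a went from 30.0, 13.1 and 13.5 CPM to 73.0, 66.8 and 48.0 CPM and Sema6c from a mean of 19.2 ± 4.22 to 62.8 ± 4.19 CPM (SD). Their log2 differences were 1.55 ± 0.17 and 1.5 ± 0.14 (SE), and those of Sema4c and Sema4g were 1.28 ± 0.18 and 1.27 ± 0.17 (SE). Sema7a went the other way. It was at 103, 62.7 and 80.4 CPM in the Atoh1 gate and at 19.6, 15.0 and 6.52 CPM in the Barhl1 and Mapt gate, and fell by 2.26 ± 0.20 (SE, adjusted p = 5.09e-06 in limma). Among the gates of the RL libraries, Sema7a was thus highest in the Atoh1 gate. In Barhl1 and Mapt cells of these libraries without a UMI of Eomes or Lmx1a, Sema7a was at 74.3, 74.0 and 70.1 CPM. Those cells could also meet the Atoh1 gate, and carried Atoh1 at 272, 248 and 177 CPM. Efna4, Ntn1 and Unc5a, given below as lower, had means of 49.4, 18.1 and 20.6 CPM there. The part of the gating in these falls was not tested. The Sema7a receptor gene Plxnc1 rose by a log2 difference of 0.37 ± 0.10 (SE), from 68.7 ± 8.52 to 90.2 ± 6.52 CPM (SD). Its adjusted p was 0.0742 in limma without RL e14 replicate 1.

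Of the 6 plexin genes tested 3 rose, 1 fell and 2 did not pass, and the 1 neuropilin tested rose. Nrp1, a co-receptor for class 3 semaphorins, was at 8.52, 3.77 and 4.04 CPM in the Atoh1 gate and at 35.8, 42.3 and 10.5 CPM in the Barhl1 and Mapt gate, a log2 difference of 1.60 ± 0.27 (SE, adjusted p = 0.000486 in limma). RL e14 replicate 2 rose least. Plxnb2, a receptor for class 4 semaphorins, went from 86.5, 77.1 and 87.4 CPM to 283, 161 and 158 CPM, a log2 difference of 1.16 ± 0.14 (SE). Plxna3 rose by a log2 difference of 1.22 ± 0.16 (SE), and Plxnd1 fell by 0.92 ± 0.18 (SE) from 15.8 ± 3.00 to 5.94 ± 0.80 CPM (SD).

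The ligand genes Ntn1 and Slit2 were lower and Ntn4 was higher. Ntn1, the main attractant for Dcc-bearing axons, was at 24.5, 18.5 and 23.3 CPM in the Atoh1 gate and at 16, 3.99 and 0.541 CPM in the Barhl1 and Mapt gate, and fell by 1.41 ± 0.29 (SE, adjusted p = 0.00189 in limma). The spread over libraries in the latter gate was wide. Slit2 fell by 0.96 ± 0.22 (SE) from 20.8 ± 1.63 to 9.28 ± 7.05 CPM (SD), and Ntn4 rose from 8.33 ± 0.74 to 16.3 ± 5.59 CPM (SD). The receptors changed less evenly, with Unc5a falling by 1.28 ± 0.22 (SE) from 34.0, 20.8 and 18.3 CPM to 5.78, 11.2 and 4.49 CPM. Unc5c rose by a log2 difference of 0.64 ± 0.09 (SE), to 179 ± 46.2 CPM, and Dcc did not pass. Robo2 rose a little further, from 146 ± 21.8 to 187 ± 4.34 CPM (log2 difference 0.36 ± 0.10, SE), and its adjusted p was 0.171 without RL e14 replicate 1. Robo1 did not pass.

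In the Eph system, Efna4 fell by 1.36 ± 0.16 (SE), from 54.6, 58.2 and 64.3 CPM to 24.2, 21.1 and 15.2 CPM, while Efna5 rose by a log2 difference of 1.05 ± 0.15 (SE). Ephb1, Efnb1 and Efnb2 rose by log2 differences of 0.73 ± 0.15, 0.69 ± 0.13 and 0.85 ± 0.12 (SE). With cells that met both gates kept in both, the Ephb1 difference was 0.041 (adjusted p = 0.855 in limma). Ephb1 and Efnb2 had both fallen from the Sox2 to the Atoh1 gate, and the comparisons share the Atoh1 profiles. Epha5 went from 688, 413 and 332 CPM to 752, 829 and 372 CPM, with a log2 difference of 0.43 ± 0.15 (SE, adjusted p = 0.0317 in limma) that was 0.14 without RL e14 replicate 1 (adjusted p = 0.483). Epha3 and Sema6d fell by 0.48 ± 0.11 and 0.61 ± 0.18 (SE). With each cell thinned to 6000 UMIs, Robo2, Plxnc1, Ephb1, Slit2, Plxnd1, Sema6d and Epha3 did not pass (adjusted p from 0.0784 to 0.490 in limma).

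**Figure D3:**
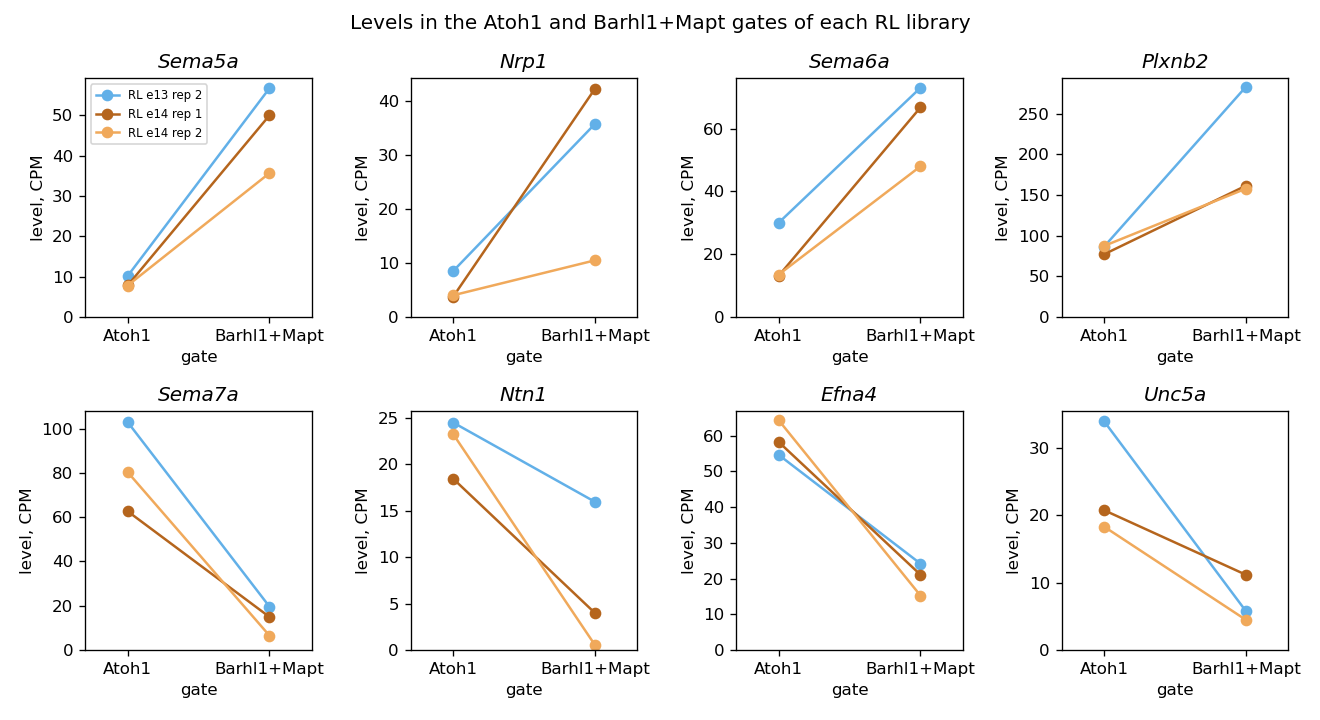
Levels in CPM of 4 genes that rose (top) and 4 that fell (bottom) between the Atoh1 gate and the Barhl1 and Mapt gate, with 1 line per RL library. Sema5a, Nrp1, Sema6a and Plxnb2 climb and Sema7a, Ntn1, Efna4 and Unc5a drop in all 3 libraries.

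**Figure D4:**
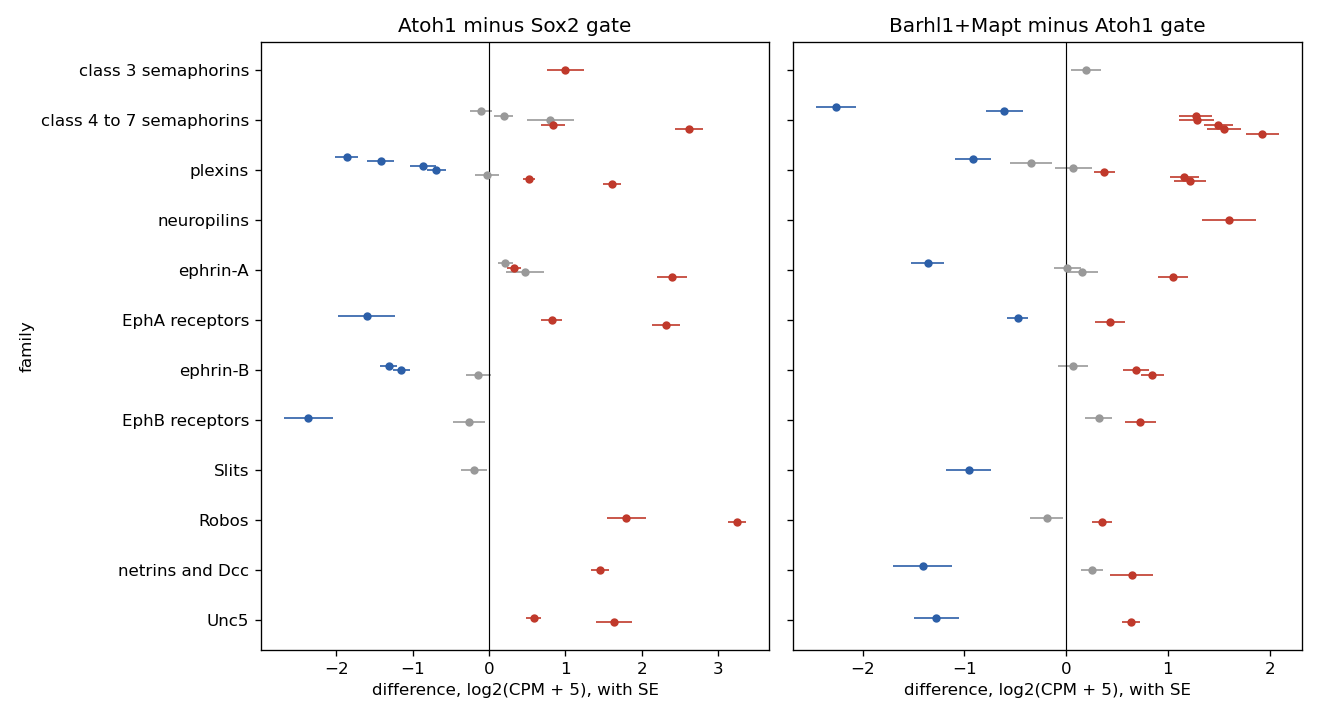
Differences on the log2(CPM + 5) scale (points) with their SE (bars) for every guidance gene tested, by family, in the Atoh1 gate minus the Sox2 gate (left) and the Barhl1 and Mapt gate minus the Atoh1 gate (right). Red points rose, blue points fell and grey points did not pass at an adjusted p under 0.05, and ephrin-B genes lie below 0 on the left and above 0 on the right.

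The fixed lists of further pathway genes were read for this comparison too. Of the other ligands, receptors and co-receptors, 12 were tested, 8 rose and 4 fell, led by L1cam, Cntn1 and Ncam1 with log2 differences of 2.82 ± 0.14, 2.49 ± 0.14 and 2.19 ± 0.17 (SE). These adhesion molecules are carried on axons. Alcam and Flrt2 fell by 2.29 ± 0.13 and 1.53 ± 0.17 (SE). Of the intracellular genes, 29 were tested, 17 rose and 4 fell, with Dpysl3 highest at 2.18 ± 0.09 (SE). The median log2 differences of the lists were 1.03 and 0.58, against 0.00 for all genes, of which 27.6% rose and 26.3% fell.

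The Eomes and Lmx1a gate and the Tlx3 and Lhx1 gate held 20 or more cells in the e16 library alone, so their levels there stand beside each other with no test. With cells that met several gates kept in each, both could be set against the Barhl1 and Mapt gate in 3 libraries. In limma 0 of 36 guidance genes then passed for the Eomes and Lmx1a gate (0% of all genes) and 3 of 35 for the Tlx3 and Lhx1 gate (3.46% of all genes). Most Eomes and Lmx1a cells were then in both groups. They were 986 of 1156 in the e16 library, 16 of 25 in RL e14 replicate 2 and 19 of 28 in RL e13 replicate 2. Shared cells make the groups alike, so the 0 of 36 does not show that these genes did not differ. Genes are named where the higher level was 20 CPM or more and the ratio 4 or more. The Eomes and Lmx1a gate (165 cells) was set beside the Barhl1 and Mapt gate of that library (860 cells, with Eomes at 621 CPM). No guidance gene was past the limits upward and 1 was downward, against 0.126% and 0.0265% of all 15077 genes detected. That gene was Epha5, at 6.51 CPM in the Eomes and Lmx1a gate and 29.2 CPM in the Barhl1 and Mapt gate. Unc5c was high in both, at 365 and 371 CPM, and so were Plxna2 (111 and 126 CPM), Nrp1 (88.3 and 96.2 CPM) and Sema3a (83.9 and 71.1 CPM).

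The Tlx3 and Lhx1 gate (64 cells) was also set beside the Barhl1 and Mapt gate of the e16 library, where 5 guidance genes were past the limits upward and 4 downward, against 0.544% and 0.643% of all 15083 genes. Ephb2 was at 245 CPM (246 UMIs, 95% Poisson interval 216 to 279) against 55.3 CPM. Robo2 was at 169 against 14.5 CPM and Epha5 at 146 against 29.2 CPM. Efna3 was at 43.7 CPM (41 UMIs, interval 29.4 to 55.6) against 1.56 CPM (17 UMIs, interval 9.90 to 27.2), and Efna4 at 27.0 against 4.18 CPM. The intervals cover counting error only. Downward were Sema3a at 5.46 against 71.1 CPM, Nrp1 at 6.87 against 96.2 CPM, Plxna2 at 29.7 against 126 CPM and Efnb2 at 2.76 against 21.6 CPM. The secreted semaphorin gene Sema3a and the co-receptor gene Nrp1 were thus both at low levels in this gate. Among other Slit and Eph receptors, Ephb1 (86.8 against 39.3 CPM) and Robo1 (16.9 against 1.66 CPM) were also higher, but not past the limits. Epha3 (30.1 against 53.7 CPM) and Epha8 (10.9 against 38.2 CPM) were lower, and not past the limits either.

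Ephb2 was at a similar level in Tlx3 and Lhx1 cells of other libraries. When all cells with 2 or more UMIs of Tlx3 and of Lhx1 were taken whatever else they met, Ephb2 was at 242 CPM in the e16 library (79 cells), 253 CPM in RL e14 replicate 1 (28 cells) and 241 CPM in RL e14 replicate 2 (40 cells). Against the Barhl1 and Mapt gate with such cells kept, at 45.4, 97.0 and 113 CPM, the log2 difference of Ephb2 was 1.57 ± 0.21 (SE, n = 3 libraries, adjusted p = 0.0103 in limma). Efnb2 and Unc5a were the genes that fell there, by 1.65 ± 0.22 and 1.22 ± 0.25 (SE, adjusted p = 0.0094 and 0.0449 in limma). Its level in the other gates lay between 34.0 and 127 CPM. Robo2 was likewise even across those cells, at 152, 161 and 185 CPM. Epha5 was not, at 134, 530 and 269 CPM, and Sema3a was at 5.22, 33.7 and 28.5 CPM.

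In the e16 library 986 of 1156 Eomes and Lmx1a cells also met the Barhl1 and Mapt gate, so a comparison was added after the gates had been seen. It set all cells with 2 or more UMIs of Eomes and of Lmx1a against Barhl1 and Mapt cells without a single UMI of either, in the e16 library (1156 and 46 cells), RL e14 replicate 2 (25 and 29 cells) and, from e13, replicate 2 (28 and 59 cells). Of 38 guidance genes tested, Plxna2 and Unc5c rose and Robo2 and Epha5 fell in the Eomes and Lmx1a cells, and 34 did not pass in limma. Over all 8363 genes, 0.849% rose and 0.729% fell (1.58% in all). The Barhl1 and Mapt cells of the RL libraries used here also carried Atoh1, at 177 and 272 CPM against 44.5 and 144 CPM in the Eomes and Lmx1a cells, and cell cycle markers at up to 682 CPM. Summed markers of Tlx3 and Lhx1 neurons (6 genes) moved with the contrast in 2 of 3 libraries, at 754, 403 and 91.9 CPM in the Barhl1 and Mapt cells of the e16 library, RL e14 replicate 2 and, from e13, replicate 2, against 74.0, 93.1 and 116 CPM in the Eomes and Lmx1a cells. The part of these markers in the result was not tested.

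Robo2 was at 5.96, 17.2 and 54.6 CPM in the Eomes and Lmx1a cells of the e16 library, the second e14 and the second e13 RL library, and at 86.0, 222 and 222 CPM in the other cells. The groups did not overlap, and Robo2 fell by 2.78 ± 0.28 (SE, n = 3 libraries, adjusted p = 0.00536 in limma). Epha5 was at 7.0, 64.2 and 345 CPM against 175, 578 and 984 CPM, lower within each library although the groups overlapped, and fell by 2.83 ± 0.37 (SE, adjusted p = 0.0108 in limma). Plxna2, a receptor for class 6 semaphorins, was at 137, 56.1 and 37.6 CPM against 32.6, 3.73 and 13.5 CPM, a log2 difference of 1.98 ± 0.32 (SE, adjusted p = 0.0224 in limma). Unc5c was at 439, 261 and 279 CPM against 211, 78.8 and 169 CPM, a log2 difference of 1.14 ± 0.19 (SE, adjusted p = 0.0275 in limma). Genes were named only if they had 1 direction in every library, so agreement of these receptors over 3 of 3 libraries is not further evidence. Without the e16 library 4 guidance genes rose and 7 fell (6.5% of all genes passed), and without RL e14 replicate 2 none passed (0.0358% of all genes), with adjusted p values from 0.122 to 0.261 for the 4 receptors.

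Nrp1 and Epha8 differed between the libraries within the Eomes and Lmx1a cells. Nrp1 was at 131 CPM in those of the e16 library, and at 6.49 and 7.04 CPM in those of the other libraries (3 and 4 UMIs). Epha8, an Eph receptor, was at 48.9 CPM in the e16 cells (603 UMIs), at 5.49 CPM from 1 UMI in RL e14 replicate 2 and at 0 UMIs in RL e13 replicate 2, where a count of 0 allows up to 5.58 CPM. In the Sox2 gate Epha8 had 0 UMIs in all 4 RL libraries, which allows at most 1.58 CPM. Summed markers of glutamatergic cerebellar nuclei also differed within the Eomes and Lmx1a cells. They stood at 9.52 CPM in the e16 library, 162 CPM in RL e14 replicate 2 and 183 CPM in RL e13 replicate 2. The part of such cells in the Nrp1 and Epha8 values was not tested. With 1 library at e16, age, mouse line and library cannot be told apart.

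The e16 part of the same contrast was also read alone. It reused the same 46 cells and 986 of the same 1156 cells, so it is not a separate check. Cells that met both the Barhl1 and Mapt and the Eomes and Lmx1a gates (986 cells) had Epha5 at 6.90 CPM and Robo2 at 6.28 CPM, against 175 and 86.0 CPM in the 46 Barhl1 and Mapt cells without Eomes or Lmx1a. Epha3 was at 36.3 against 162 CPM. Plxna2 was at 141 against 32.6 CPM and Nrp1 at 139 against 34.1 CPM. These 2 genes upward and 3 downward were the guidance genes past the limits, which 0.525% and 0.744% of all 15049 genes passed. Markers of Tlx3 and Lhx1 neurons summed to 69.6 CPM in the 986 cells and 754 CPM in the 46 cells, mostly Syt4 at 47.6 against 589 CPM, and the Tlx3 and Lhx1 gate itself had Robo2 at 169 and Epha5 at 146 CPM. The part of such cells was not tested.

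**Figure D5:**
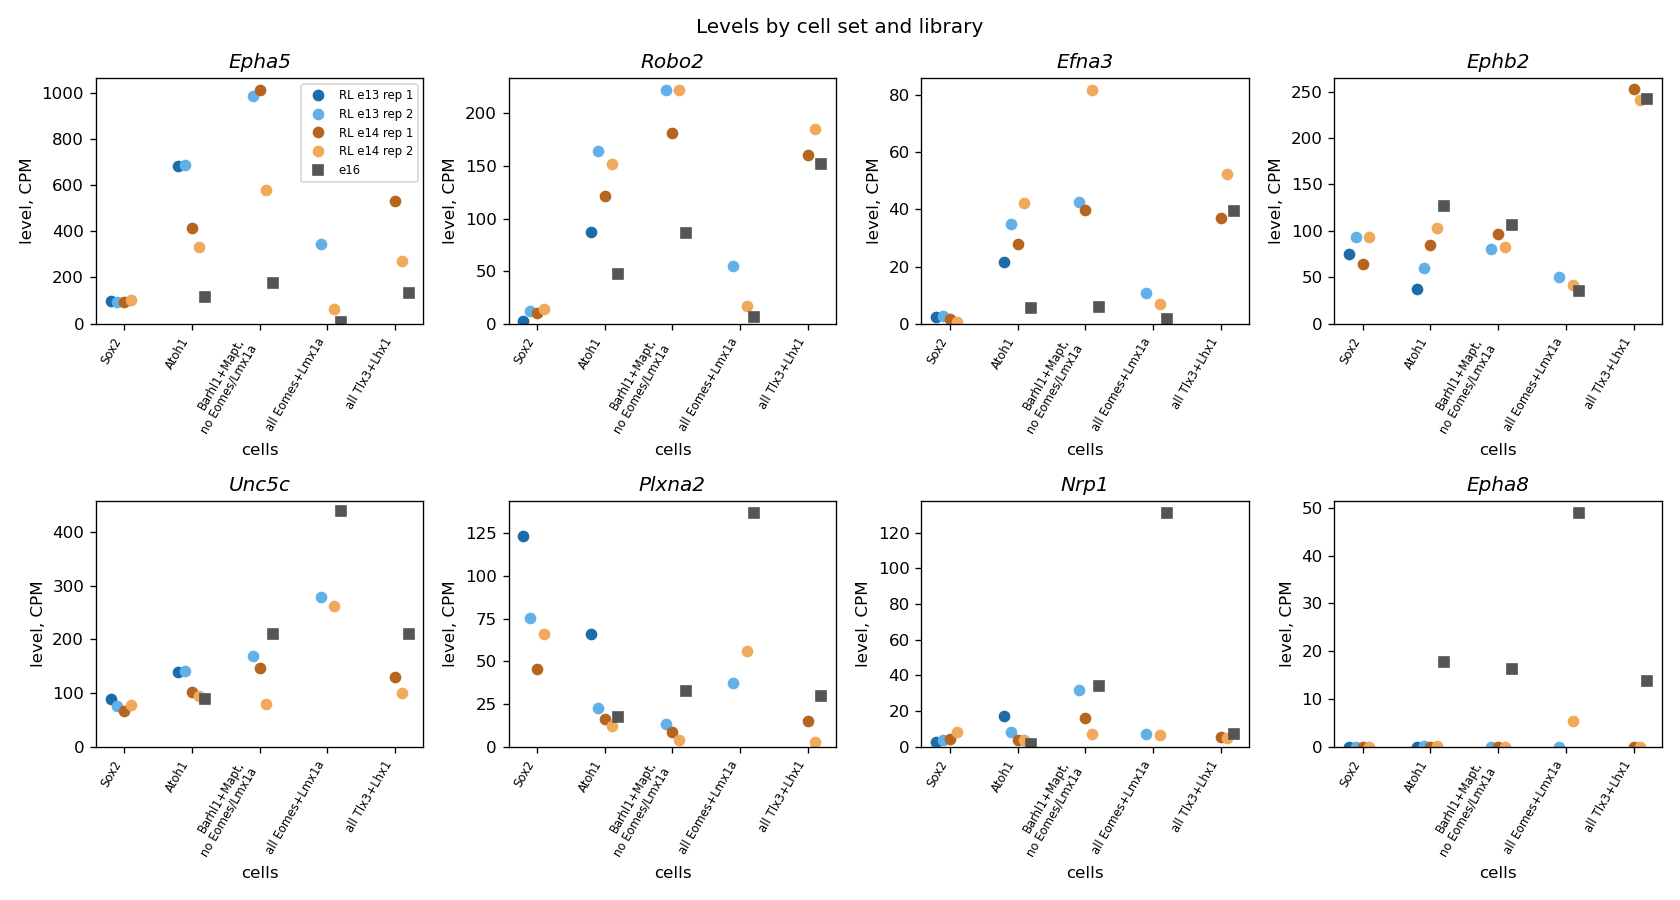
Levels in CPM of 8 guidance receptors and ligands in 5 sets of cells, with 1 point per library (circles RL, squares e16). Ephb2 lies between 241 and 253 CPM in all 3 libraries of Tlx3 and Lhx1 cells, and Nrp1 and Epha8 are high in the e16 square of the Eomes and Lmx1a cells, at 131 and 48.9 CPM.

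The Barhl1 and Mapt gate of the e16 library stood outside each of 3 RL libraries by a ratio of 4, with the higher level at 20 CPM or more, for 7 guidance genes. RL e13 replicate 1 held 1 cell in this gate and was left out. Epha8 (38.2 CPM against at most 1.65 CPM) and Plxna2 (126 against at most 14.4 CPM) were higher, as were 0.473% of all genes. Epha5 (29.2 against at least 372 CPM), Robo2 (14.5 against at least 183 CPM), Efna3 (1.56 against at least 35.6 CPM), Sema5a (7.61 against at least 35.7 CPM) and Robo1 (1.66 against at least 24.0 CPM) were lower, as were 0.331% of all genes. This gate also differed in Eomes, as given above, and in other markers. Lmx1a was at 83.1 against at most 8.92 CPM and Barhl2 at 154 against at most 30.2 CPM. Meis2, a nuclei marker, was at 3.54 against at least 47.7 CPM. The part of such differences in the cells held was not tested. In the Atoh1 gate, where the e16 library had 39 cells, 0 guidance genes were past the limits upward (0.305% of all genes) and 0 downward (0.121%). Robo2 was at 47.5 CPM there, Epha5 at 116 CPM and Sema7a at 9.30 CPM, each below all 4 RL values. The markers of this gate differed as well. Atoh1 was at 204 against at least 373 CPM and Eomes at 164 against at most 50.9 CPM. Otx2 was at 688 against at most 200 CPM and Mapt at 83.7 against at most 14.2 CPM. The part of the cells held in these lower values was not tested.

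RL e14 and RL e13 were compared within the Sox2 and the Atoh1 gate, with 2 libraries a side. No guidance gene passed in limma, of 27 tested in the Sox2 gate and 33 in the Atoh1 gate, and 0% of all genes passed in either. At an unadjusted p under 0.05 there were 5 and 10 guidance genes, beside 8.94% and 15.6% of all genes. The groups did not overlap for 11 genes in the Sox2 gate (2 higher and 9 lower at e14) and 16 in the Atoh1 gate (3 higher and 13 lower). Over all genes tested, 13.4% lay wholly higher and 29% wholly lower at e14 in the Sox2 gate, and 15.8% and 36.1% in the Atoh1 gate, so that the counts of guidance genes lay near the background. The lowest adjusted p values were 0.540 and 0.258. Epha5 in the Atoh1 gate had a log2 difference of -0.88 ± 0.13 (SE, unadjusted p = 0.000465 in limma), and Epha3 in the Sox2 gate had -1.13 ± 0.26 (SE), from 47.5 and 28.2 CPM at e14 and 101 and 73.9 CPM at e13. Grouped by age tag, which leaves RL e13 replicate 1 alone on its side, 1 guidance gene passed in the Sox2 gate (0.523% of all genes) and 9 in the Atoh1 gate (4.72% of all genes).

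With ages taken from the titles, Ephb2 was the gene whose step from the Sox2 to the Atoh1 gate had opposite signs at the different ages. It went from 64.1 to 84.3 CPM and from 93.5 to 103 CPM in the e14 libraries, and from 75.3 to 37.2 CPM and from 93.9 to 59.5 CPM in the e13 libraries. RL e13 replicate 2 (93.9 to 59.5 CPM) is tagged e14, and by tag the e14 libraries hold steps of either sign. The difference between the steps was 1.03 ± 0.18 on the log2 scale (SE), and its adjusted p was 0.393 from an interaction term in limma, so that it did not pass.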

How the data were processed

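The assay, per the labels' protocols, was 10x Chromium 3′ single-cell RNA sequencing (v3 and v3.1). The submitters' processing notes list Cell Ranger and mm10. The labels used here do not say how cells were filtered or doublets handled. Values deposited by the authors are natural log values that back-transform to 10000 per cell. UMI counts were recovered from them, with 100% of 29540669 values within 0.01 of a whole count. No doublet caller was run.

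Gated cells were averaged per library and scaled to 1000000 (CPM). Tests used limma 3.58.1 (trend, R 4.3.3) on log2(CPM + 5), where changes at low levels come out too small. Benjamini-Hochberg adjustment ran over every gene whose mean reached 10 CPM. Gate comparisons had the library as a block. No label ties libraries to animals, and the p-values therefore reflect variation among libraries that may be technical. On simulated data, limma recovered 100% of changes of 1 log2 unit in the Atoh1 against Sox2 comparison (8299 genes). It recovered 100% in the Barhl1 and Mapt against Atoh1 comparison (8126 genes) and 86.7% in the added comparison (8208 genes). Of the calls, 2.93%, 0.990% and 3.14% were false. In the real added comparison Sema7a did not pass, at 5.37, 4.14 and 14.7 CPM against 7.84, 70.1 and 74.3 CPM. The simulated shares therefore do not show that genes that did not pass were unchanged.

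Members and lists were chosen with earlier results of these data known. Genes named with values were, per comparison, the up to 8 highest and 8 lowest called members with 1 direction in every library, the top member of each family, and members past the level and ratio limits in the e16 library. Up to 3 called genes per direction of each other list were named, and other genes were named after their values were seen. Alternatives changed the UMIs for a positive cell (1 or 3), overlapping cells, thinning to 6000 UMIs, pseudocount (1 or 20), filter, scaling, block and libraries. Gene coordinates and promoters are from RefSeq (GRCm38.p6). Protein sequences were not used here.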

Additional observations from a re-analysis of the deposited data

How the results depend on the processing

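Counts of guidance genes in the tested gate comparisons were within 1.5 times of those reported in 29 of 30 values (Atoh1 against Sox2) and 28 of 30 (Barhl1 and Mapt against Atoh1). Without the level filter 14 and 13 genes fell in these comparisons, and with the e16 library added 5 fell in the second, where Robo2 and Epha5 reversed to -0.091 and -0.13 (adjusted p of 0.818 and 0.793 in limma) and Unc5a, Plxnb2 and Epha3 lost their call. The cause was not tested. With median of ratios scaling the Atoh1 against Sox2 counts over all genes were 1181 higher and 1232 lower, against 899 and 1539, and the guidance genes stayed at 14 and 8. Of the named genes, 14 of 20 and 12 of 22 kept their call under every alternative run. Without the replicate block Plxna1 and Epha3 lost their call in the first comparison and Epha5 and Epha3 in the second. The added comparison gave 0 higher and 0 lower without the filter and with no replicate block, and 0 to 4 higher and 0 to 7 lower with each library left out. In the e16 library, Epha5 was not past the limits with positive cells at 1 UMI, with cells kept in both gates or without the 5% deepest cells (0 genes lower), and 3 genes were higher in the Tlx3 and Lhx1 gate at 1 UMI. Grouped by age tag, 1 gene was higher in the Sox2 gate, and 5 were higher and 4 lower in the Atoh1 gate. Leaving out each library in turn gave 0 to 2 higher and 0 to 4 lower in the Sox2 gate and 0 to 6 higher and 0 to 9 lower in the Atoh1 gate, all of them without RL e13 replicate 2, which leaves RL e13 replicate 1 alone and assumes that it varies like the e14 libraries. No paired analysis was possible for the ages because 1 e14 title carries no number, so that the planned block by number was not run. Sets of 25 to 46 cells limit the added comparison.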
